A study of Homo sapiens with 27 samples.

Results

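Transcripts of 38 genes of the unfolded protein response and the integrated stress response were followed through knockdown of the transcription factor GATA2 in prostate cancer cells. The genes were taken by symbol from a table of 23228 genes: 15 chaperones and folding enzymes of the endoplasmic reticulum (ER), 4 components of ER-associated degradation (ERAD), 4 sensors with their factors, 8 regulators of the integrated stress response, and 7 ATF4 targets, 6 of amino acid supply and VLDLR. All 38 were in the table. Total RNA was sequenced from DU145-DR, 22Rv1-DR and ARCaPM-DR cells, derived from human prostate cancer cell lines and labelled Ch-CRPC, in a series on castration-resistant prostate cancer. Each line carried shGATA2a or shGATA2b, short hairpin RNAs against GATA2, or a random control hairpin, with 3 libraries in each of the 9 groups. The labels do not say how a line was derived, how hairpins were delivered or induced, for how long, or whether cells were clones. Nor do they tell whether the replicates are separate cultures; p-values here measure only the spread between libraries, which may be technical.

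Unfolded proteins in the ER are sensed by IRE1, encoded by ERN1, by PERK, encoded by EIF2AK3, and by ATF6. IRE1 splices the mRNA of XBP1, and ATF6 is released by cleavage, so that both yield factors that switch on chaperone and ERAD genes. PERK and the other eIF2 kinases restrain translation while favouring that of ATF4, whose targets include CHOP (encoded by DDIT3), TRIB3, ASNS and genes of amino acid transport and serine synthesis. Sensor activity, XBP1 splicing and ATF4 translation are not visible in transcript totals per gene.

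Values are normalised read counts, that is, whole reads scaled by 1 factor per library and not by gene length, so that levels are compared between libraries and not between genes. Depth ran from 3.44 M to 19.4 M reads per library, with a median of 12.9 M. GATA2 itself had 17.3, 24.1 and 46.6 (lowest, median and highest of the 6 knockdown libraries) in ARCaPM-DR, against 173, 153 and 145 in controls. It had 225, 311 and 385 in DU145-DR knockdown, against 1255, 1135 and 925 in controls, and 806, 1034 and 1738 in 22Rv1-DR knockdown, against 3444, 4307 and 3052 in controls. All 6 knockdown libraries lay below all 3 controls in each line, although 12 of the 27 GATA2 values (5 in DU145-DR, 7 in 22Rv1-DR) were not a whole number of reads, unlike those of the 38 genes. Prostate luminal markers (4 genes) summed to 258 to 376 in DU145-DR knockdown, against 282 to 343 in controls. They summed to 46.6 to 96.3 in ARCaPM-DR knockdown, against 80.6 to 117 in controls. In 22Rv1-DR they summed to 13614.5 to 17662 in knockdown, against 11904 to 20009 in controls. Of the 4, KLK3 was at 0 throughout DU145-DR and ARCaPM-DR, and 1 averaged at least 10 in each of these lines. Blood markers (4 genes) summed to at most 9.78 in any library. Endothelial markers (4 genes) summed to 10.9 to 36.8 in DU145-DR knockdown, against 5.19 to 8.55 in controls. Mesenchymal markers (4 genes) summed to 14651 to 17788 in DU145-DR knockdown, against 13563 to 14683 in controls. They summed to 34899 to 50754 in ARCaPM-DR knockdown, against 42041 to 58501 in controls. In 22Rv1-DR they summed to 3016 to 4177 in knockdown, against 3917 to 5341 in controls. Fibroblast markers (4 genes) summed to 72.5 to 131 in DU145-DR knockdown, against 146 to 180.0 in controls. They summed higher in the other lines, where the groups overlapped. There they had 1489 to 3106 in ARCaPM-DR knockdown, against 1355 to 1953 in controls, and 1294 to 1982 in 22Rv1-DR knockdown, against 1379 to 4289 in controls. Sums of epithelial markers (5 genes) overlapped between knockdown and control in each line. The part of these markers in the results was not tested, and in bulk RNA fewer cells of a kind and less RNA per cell cannot be told apart.

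The promoters of 36 of the 38 genes were found in RefSeq (GRCh38.p14, 250 bases before to 50 after the start), ERO1L under the name ERO1A; PDIA3 and PSPH were not matched. They were searched on both strands for the ER stress response element (ERSE, CCAAT and CCACG with any 9 bases between), ERSE-II (ATTGG and CCACG with any 1 base between), the core of the unfolded protein response element (UPRE, TGACGTGG), the C/EBP-ATF composite element (TGATGNAA) and the core GATA motif AGATAA. The ERSE was in 6 of the 36 promoters (HSPA5, HSP90B1, CALR, CANX, CRELD2 and XBP1) and in 0.0806% of all 27303 promoters. ERSE-II was in 3 (SDF2L1, HYOU1 and HERPUD1) and in 0.0549% of all. The composite element, which ATF4 dimers are known to bind, was in 5 (HERPUD1, ATF3, CHAC1, ASNS and SLC3A2) and in 3.67% of all. The UPRE core was in 1, HYOU1, overlapping an ERSE-II, and in 0.795% of all. AGATAA was in 1, HSPA5, and in 10.5% of all.

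The 6 promoters below are shown because they carry the elements by which ER stress and ATF4 are known to act on chaperone, ERAD and amino acid genes. Capitals mark matches, read on either strand, to ERSE in HSPA5 and HSP90B1, to ERSE-II with the UPRE core in HYOU1, to the composite element and then ERSE-II in HERPUD1, and to the composite element in ASNS and SLC3A2. A match describes the letters and is not a binding site shown by these data. In SLC3A2 the match lies within the 50 bases after the start, beginning 37 bases from it. Positions are chr9:125241294-125241593 (minus strand) for HSPA5, chr12:103930160-103930459 (plus) for HSP90B1, chr11:119057156-119057455 (minus) for HYOU1, chr16:56931892-56932191 (plus) for HERPUD1, chr7:97872359-97872658 (minus) for ASNS and chr11:62881449-62881748 (plus) for SLC3A2.
HSPA5: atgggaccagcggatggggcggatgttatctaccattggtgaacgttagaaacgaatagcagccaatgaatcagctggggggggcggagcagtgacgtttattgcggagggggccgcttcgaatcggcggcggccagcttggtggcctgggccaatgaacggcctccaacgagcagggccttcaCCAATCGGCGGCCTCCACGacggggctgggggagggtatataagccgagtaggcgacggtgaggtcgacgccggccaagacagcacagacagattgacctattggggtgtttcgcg
HSP90B1: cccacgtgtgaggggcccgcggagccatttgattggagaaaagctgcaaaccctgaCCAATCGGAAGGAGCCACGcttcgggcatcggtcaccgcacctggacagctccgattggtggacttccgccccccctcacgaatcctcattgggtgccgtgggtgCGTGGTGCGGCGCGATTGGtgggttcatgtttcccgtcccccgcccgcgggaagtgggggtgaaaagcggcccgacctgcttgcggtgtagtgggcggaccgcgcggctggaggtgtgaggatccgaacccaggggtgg
HYOU1: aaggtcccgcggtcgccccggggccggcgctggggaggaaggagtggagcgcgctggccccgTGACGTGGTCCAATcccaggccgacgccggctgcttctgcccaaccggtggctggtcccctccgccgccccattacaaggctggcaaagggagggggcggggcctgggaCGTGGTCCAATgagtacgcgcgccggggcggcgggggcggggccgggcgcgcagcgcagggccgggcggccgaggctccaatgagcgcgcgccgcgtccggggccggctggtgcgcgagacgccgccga
HERPUD1: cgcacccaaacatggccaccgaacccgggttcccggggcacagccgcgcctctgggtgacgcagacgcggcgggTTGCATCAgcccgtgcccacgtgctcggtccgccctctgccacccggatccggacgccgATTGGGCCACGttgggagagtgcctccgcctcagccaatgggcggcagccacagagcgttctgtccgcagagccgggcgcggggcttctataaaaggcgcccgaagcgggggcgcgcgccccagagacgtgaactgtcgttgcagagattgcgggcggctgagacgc
ASNS: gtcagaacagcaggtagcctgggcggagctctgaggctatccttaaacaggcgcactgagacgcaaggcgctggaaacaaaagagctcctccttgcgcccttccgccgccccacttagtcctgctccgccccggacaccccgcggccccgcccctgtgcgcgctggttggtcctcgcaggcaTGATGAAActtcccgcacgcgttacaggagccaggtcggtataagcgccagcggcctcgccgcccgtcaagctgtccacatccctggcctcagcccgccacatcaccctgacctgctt
SLC3A2: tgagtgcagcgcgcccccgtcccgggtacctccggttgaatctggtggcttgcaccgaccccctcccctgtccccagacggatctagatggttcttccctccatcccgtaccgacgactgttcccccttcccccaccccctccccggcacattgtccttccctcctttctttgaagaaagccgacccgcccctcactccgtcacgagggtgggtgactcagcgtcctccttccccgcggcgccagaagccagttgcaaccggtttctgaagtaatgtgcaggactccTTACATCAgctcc

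Knockdown was compared with control within each line, taking both hairpins together. Here "rose" and "fell" mean an adjusted p under 0.05 (limma, Benjamini-Hochberg over all genes tested in that line), and folds are on the log2(value + 1) scale. In ARCaPM-DR, 8 of the 38 genes rose and 1 fell, where 9.86% of 13079 tested genes rose and 8.62% fell. In DU145-DR, 14 rose and 2 fell, where 8.72% of 13362 tested genes rose and 7.98% fell. In 22Rv1-DR none passed with limma, where 0.124% of 13757 tested genes rose and 0.276% fell. There, 3 of the 38 were higher and 5 lower at an unadjusted p under 0.05, where 4.15% and 5.87% of all tested genes were, edgeR called 0, and DESeq2 called 1, PHGDH, lower. Even the 22Rv1-DR change of GATA2, −1.71 log2 (limma adjusted p = 0.026), was lost as a call in 8 of 19 alternative settings. Of these, 7 each left out 1 library (adjusted p up to 0.11). In ARCaPM-DR and DU145-DR the GATA2 call was lost in 0 of 19, so the 22Rv1-DR fit had less power. edgeR and DESeq2 gave the same counts as limma for each role in ARCaPM-DR and DU145-DR. The median log2 change of the 38 was 0.20 in ARCaPM-DR, 0.13 in DU145-DR and −0.14 in 22Rv1-DR, beside medians of all tested genes of −0.0038, −0.0020 and −0.016.

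With the replicate number as a block, 4 genes fell in DU145-DR (19.2% of all tested genes did) and 18 rose (19.6% did), and in 22Rv1-DR 3 rose (0.465% of all tested genes rose and 0.741% fell). The 3 in 22Rv1-DR were DNAJB9, SEL1L and ERN1. Without the block, all 6 knockdown libraries of 22Rv1-DR lay below all 3 controls for 4 genes (CALR, PDIA3, ASNS and PHGDH), where 4.04% of all tested genes did, and above them for 0, where 2.9% did. In all, 21 genes were called in at least 1 line, 17 in none and 0 in all 3 lines. HSP90B1, PDIA4, DNAJC3 and SEL1L rose in both ARCaPM-DR and DU145-DR: these 4 were 4 of the 8 that rose in ARCaPM-DR and 4 of the 14 that rose in DU145-DR. Shares of all genes for these counts across lines are not reported here, so the counts describe the 38 genes only. A count of 0 in all 3 lines says little, as only 0.124% of all tested genes rose and 0.276% fell in 22Rv1-DR.

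**Figure D1:**
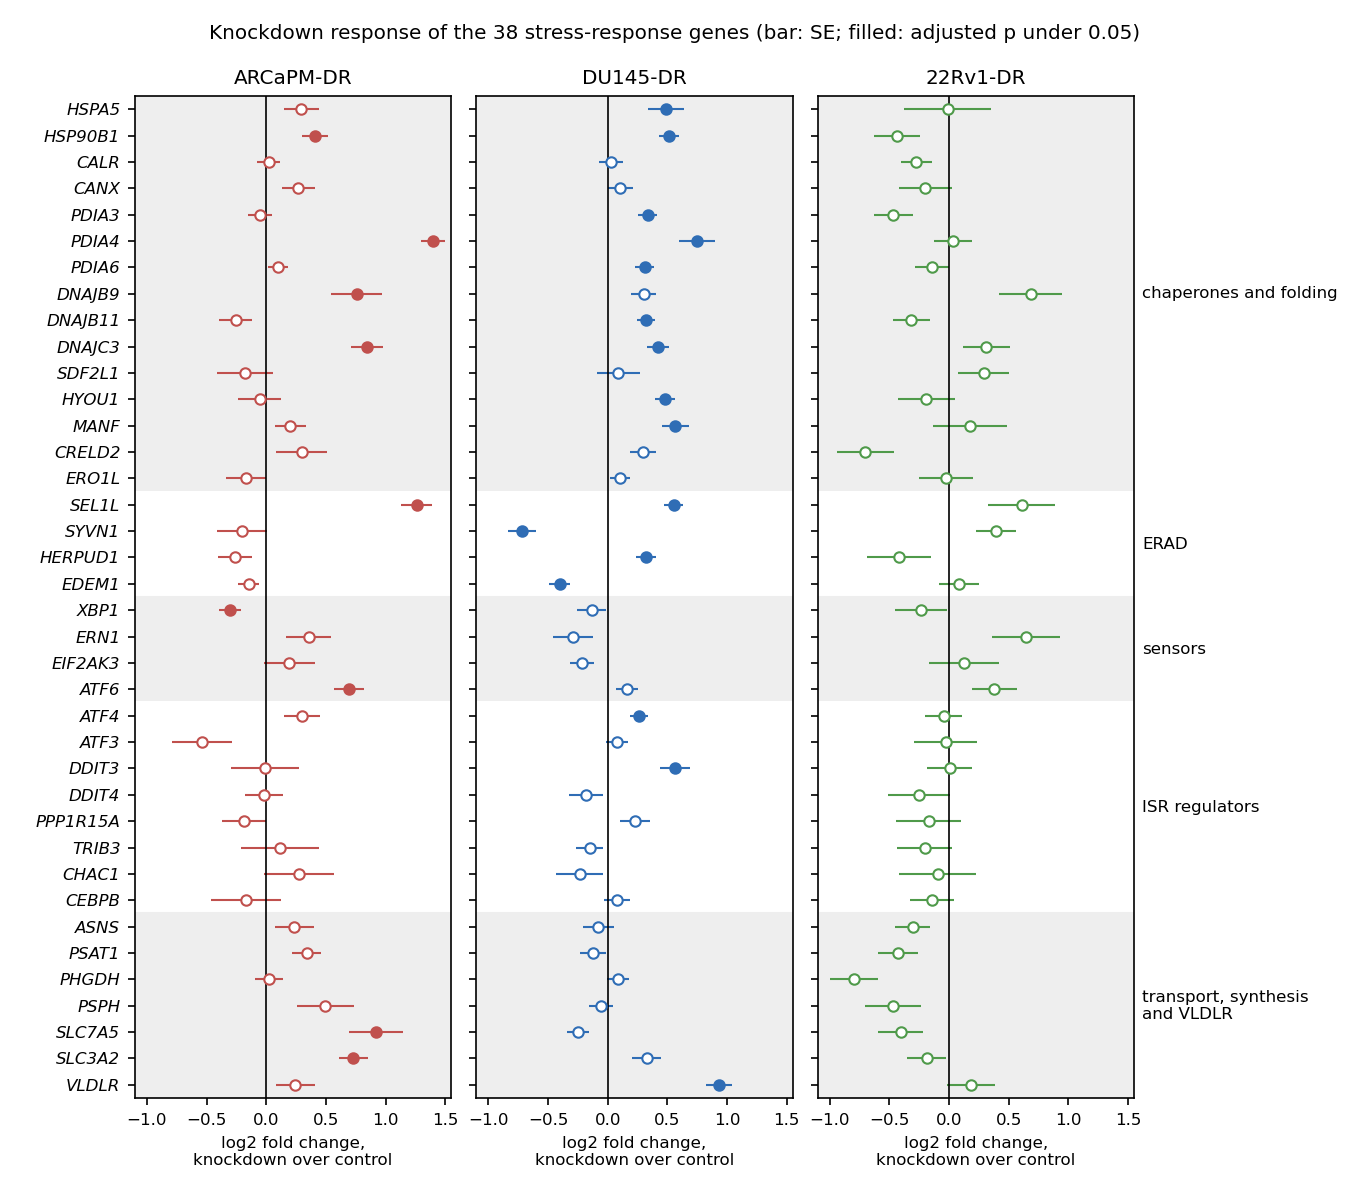
Log2 fold change of knockdown over control (horizontal axis) with its standard error for each of the 38 genes, by role, in ARCaPM-DR, DU145-DR and 22Rv1-DR. Filled points had an adjusted p under 0.05 (limma): 9 in ARCaPM-DR, 16 in DU145-DR and 0 in 22Rv1-DR.

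The chaperones and folding enzymes held most of the DU145-DR calls. There 9 of 15 rose and 0 fell: HSPA5, HSP90B1, PDIA3, PDIA4, PDIA6, DNAJB11, DNAJC3, HYOU1 and MANF. Taken by hairpin, 9 of the 15 rose with shGATA2a alone and 4 with shGATA2b alone, with the same sign for 14 of the 15. The shares of all genes by hairpin in DU145-DR are not reported here. The 15 log2 changes ran from 0.03 to 0.75 with a median of 0.32, and all 15 were above 0, so that none was lower at an unadjusted p under 0.05. For 10 of the 15, all 6 knockdown libraries lay above all 3 controls, as for 10% of all tested genes, and for 0 of the 15 they lay below, as for 8.74% of all. In ARCaPM-DR 4 of 15 rose and 0 fell (PDIA4, DNAJC3, DNAJB9 and HSP90B1), with 0 lower at an unadjusted p under 0.05 and a median of 0.20. There 3 of the 15 separated upward, where 11% of all tested genes did and 10% separated downward. By hairpin in ARCaPM-DR, 3 of the 15 rose with shGATA2a alone and 2 with shGATA2b alone, with the same sign for 12. Of all tested genes, 12.8% and 14.5% passed, in either direction. In 22Rv1-DR 0 of 15 passed with limma, edgeR or DESeq2, with 1 higher and 3 lower at an unadjusted p under 0.05 and a median of −0.14.

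PDIA4, a protein disulfide isomerase, had the largest change of the 38 in ARCaPM-DR. Its values were 5819.8, 7032 and 7886 (lowest, median, highest) in ARCaPM-DR knockdown libraries, against 2649, 2875 and 2327 in controls. They were 3805, 5184 and 5718 in DU145-DR knockdown, against 2231, 3441 and 3145 in controls, and 1984, 2267 and 2324 in 22Rv1-DR knockdown, against 1808, 1985 and 2870.5 in controls. The groups did not overlap in ARCaPM-DR or DU145-DR and overlapped in 22Rv1-DR, where the third control was the highest library. The log2 change was 1.40 ± 0.10 (SE, limma adjusted p = 5.2e-05) in ARCaPM-DR, 0.75 ± 0.15 (adjusted p = 0.0070) in DU145-DR and 0.03 ± 0.16 (adjusted p = 0.96) in 22Rv1-DR. The PDIA4 effect differed between the lines (limma F test over 27 libraries, adjusted p = 0.00061), by 1.37 ± 0.21 log2 between ARCaPM-DR and 22Rv1-DR (adjusted p = 0.00050), while ARCaPM-DR against DU145-DR, 0.65 ± 0.21, had an adjusted p of 0.062.

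HSP90B1 encodes GRP94, the HSP90 paralog of the ER, and its promoter carries the ERSE at the 2 places shown above. It had 11449, 12900.1 and 15352 in ARCaPM-DR knockdown, against 10186, 10292 and 9334 in controls. It had 14902, 17664 and 19411 in DU145-DR knockdown, against 12039, 12336 and 12406 in controls. In 22Rv1-DR it had 10665, 11354 and 13646 in knockdown, against 13821, 12766 and 22910.1 in controls. Knockdown libraries were all above controls in the first 2 lines, while in 22Rv1-DR 4 of 6 lay below all controls and the third control stood far above the rest. The log2 changes were 0.41 ± 0.11 (limma adjusted p = 0.030) in ARCaPM-DR, 0.51 ± 0.08 (adjusted p = 0.0019) in DU145-DR and −0.44 ± 0.20 (adjusted p = 0.49) in 22Rv1-DR. They differed between lines (F test, adjusted p = 0.0070), with the effects in both ARCaPM-DR (0.84 ± 0.21, adjusted p = 0.021) and DU145-DR (0.95 ± 0.21, adjusted p = 0.022) above that in 22Rv1-DR. Without the third 22Rv1-DR control the 22Rv1-DR change was −0.17 and the F test had an adjusted p of 0.016. The ARCaPM-DR call was lost on leaving out any of Control 1, 2 or 3, shGATA2a 1, or shGATA2b 1 or 3 (adjusted p up to 0.11).

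DNAJC3, the DnaJ co-chaperone P58IPK, had 647, 813 and 1000.3 in ARCaPM-DR knockdown, against 422, 499 and 423 in controls. It had 1164, 1249 and 1409.8 in DU145-DR knockdown, against 863, 916 and 1063 in controls. Neither line's groups overlapped. It rose by 0.85 ± 0.13 log2 (limma adjusted p = 0.0021) in ARCaPM-DR and by 0.42 ± 0.09 (adjusted p = 0.010) in DU145-DR, and the 22Rv1-DR value was 0.31 ± 0.20 (adjusted p = 0.57). A difference between the lines did not pass for DNAJC3 (F test, adjusted p = 0.23) but did with the replicate block (adjusted p = 0.028). DNAJB9, or ERdj4, is a DnaJ protein of the ER that works with ERAD and restrains IRE1. It had 653, 878 and 1077 in ARCaPM-DR knockdown, against 447, 423 and 672 in controls, and 548, 687 and 1177 in 22Rv1-DR knockdown, against 399, 462 and 606 in controls. In both lines the third control overlapped the lowest knockdown libraries. The log2 changes were 0.76 ± 0.21 (limma adjusted p = 0.035) in ARCaPM-DR, 0.30 ± 0.10 (adjusted p = 0.065) in DU145-DR and 0.69 ± 0.27 (adjusted p = 0.42) in 22Rv1-DR. With the replicate block the adjusted p was 0.013 in DU145-DR and 0.049 in 22Rv1-DR. The DNAJB9 call in ARCaPM-DR was lost without Control 1 or 2, shGATA2a 1 or 3, or shGATA2b 1 or 3 (adjusted p up to 0.14).

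HSPA5 encodes BiP, the main HSP70 chaperone of the ER and the usual marker of ER stress. In DU145-DR it had 19996, 28563 and 30944 in knockdown, against 15726, 19406 and 22333 in controls, with overlap. It rose by 0.49 ± 0.15 log2 (limma adjusted p = 0.042), but not without Control 1 or 2, shGATA2a 2 or 3, or shGATA2b 2 or 3 (adjusted p up to 0.20). In ARCaPM-DR it had 9668, 11932 and 14638 in knockdown, against 8482, 11776 and 9106 in controls, and the log2 difference was 0.30 ± 0.14 (adjusted p = 0.18).

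In 22Rv1-DR, HSPA5 varied with the replicate number in the labels. Libraries numbered 1 had 10618 (shGATA2a), 10456 (shGATA2b) and 10138 (Control). Those numbered 2 had 16048, 16304 and 16558 in the same order, and those numbered 3 had 26439, 25682 and 27075. Hairpin and control libraries of 1 number lay close together and the numbers did not overlap. The replicate number held 99.8% of the variance of log2 values and knockdown against control 0.00906%, and the knockdown change was −0.01 ± 0.37 (limma adjusted p = 0.99). That SE, from the fit without the block, includes the spread between numbers. A difference between lines did not pass for HSPA5 (F test, adjusted p = 0.69) but did with the replicate block (adjusted p = 0.0083). Over all genes tested in 22Rv1-DR the replicate number held a median of 44.2%, over the 38 genes 60.8% and over the 8 stress response regulators 78.4%. EIF2AK3 (96.1%), CHAC1 (91.8%), ERO1L (91.7%) and ATF3 (90.6%) followed HSPA5. What a replicate number marks is not stated, and its part in the 22Rv1-DR results was not tested beyond the block.

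**Figure D2:**
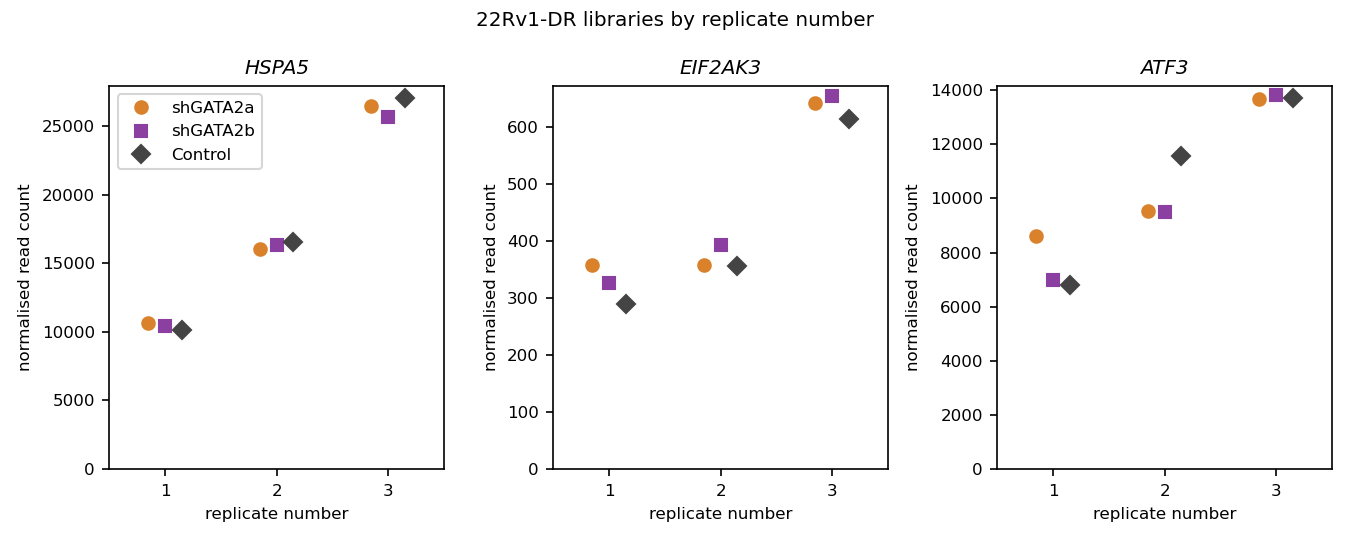
Normalised read counts (vertical axis) of HSPA5, EIF2AK3 and ATF3 in the 9 22Rv1-DR libraries by replicate number (horizontal axis), with shGATA2a, shGATA2b and Control as separate symbols. HSPA5 sits near 10138 to 10618 in the libraries numbered 1 and at 25682 to 27075 in those numbered 3, whatever the hairpin.

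MANF, a secreted ER stress-induced factor, had 1642, 1821 and 2413 in DU145-DR knockdown, against 1161, 1538 and 1133 in controls. The groups did not overlap, and it rose by 0.57 ± 0.11 log2 (limma adjusted p = 0.0063). The other DU145-DR calls were HYOU1, the nucleotide exchange factor whose promoter is shown above, at 0.48 (adjusted p = 0.0031), PDIA3 at 0.33 (0.015), DNAJB11 at 0.32 (0.012) and PDIA6 at 0.31 (0.018), all with separate groups. Without DU145-DR Control 1 the calls of PDIA3, DNAJB11, PDIA6 and DNAJC3 were lost, and without Control 2 those of PDIA6 and DNAJC3 (adjusted p up to 0.088, 0.079, 0.10 and 0.072 in the first order). CRELD2, at 0.30 with an adjusted p of 0.076, had separate groups too and an adjusted p of 0.0062 with the replicate block. The calreticulin gene CALR, at 0.03 and an adjusted p of 0.88, and the calnexin gene CANX, at 0.11 and 0.52, bind glycoproteins and carry an ERSE; they did not pass. SDF2L1 (0.09) and the ER oxidase gene ERO1L (0.10) did not pass either.

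Exact matches to the promoter elements within the 300-base window did not divide the chaperone genes by call. Variants of an element, and sites outside the window, were not searched for. Genes with neither match may therefore still carry an element, and the split cannot show what part the elements had. Of the 7 with an ERSE or ERSE-II, 1 rose in ARCaPM-DR and 3 in DU145-DR, and of the 7 with neither, 3 and 5. Median log2 changes were 0.27 with an element and 0.20 without in ARCaPM-DR, 0.30 and 0.32 in DU145-DR, and −0.20 and 0.03 in 22Rv1-DR. PDIA4, with the largest change of the 38 in ARCaPM-DR, held none of the searched motifs in its window.

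**Figure D3:**
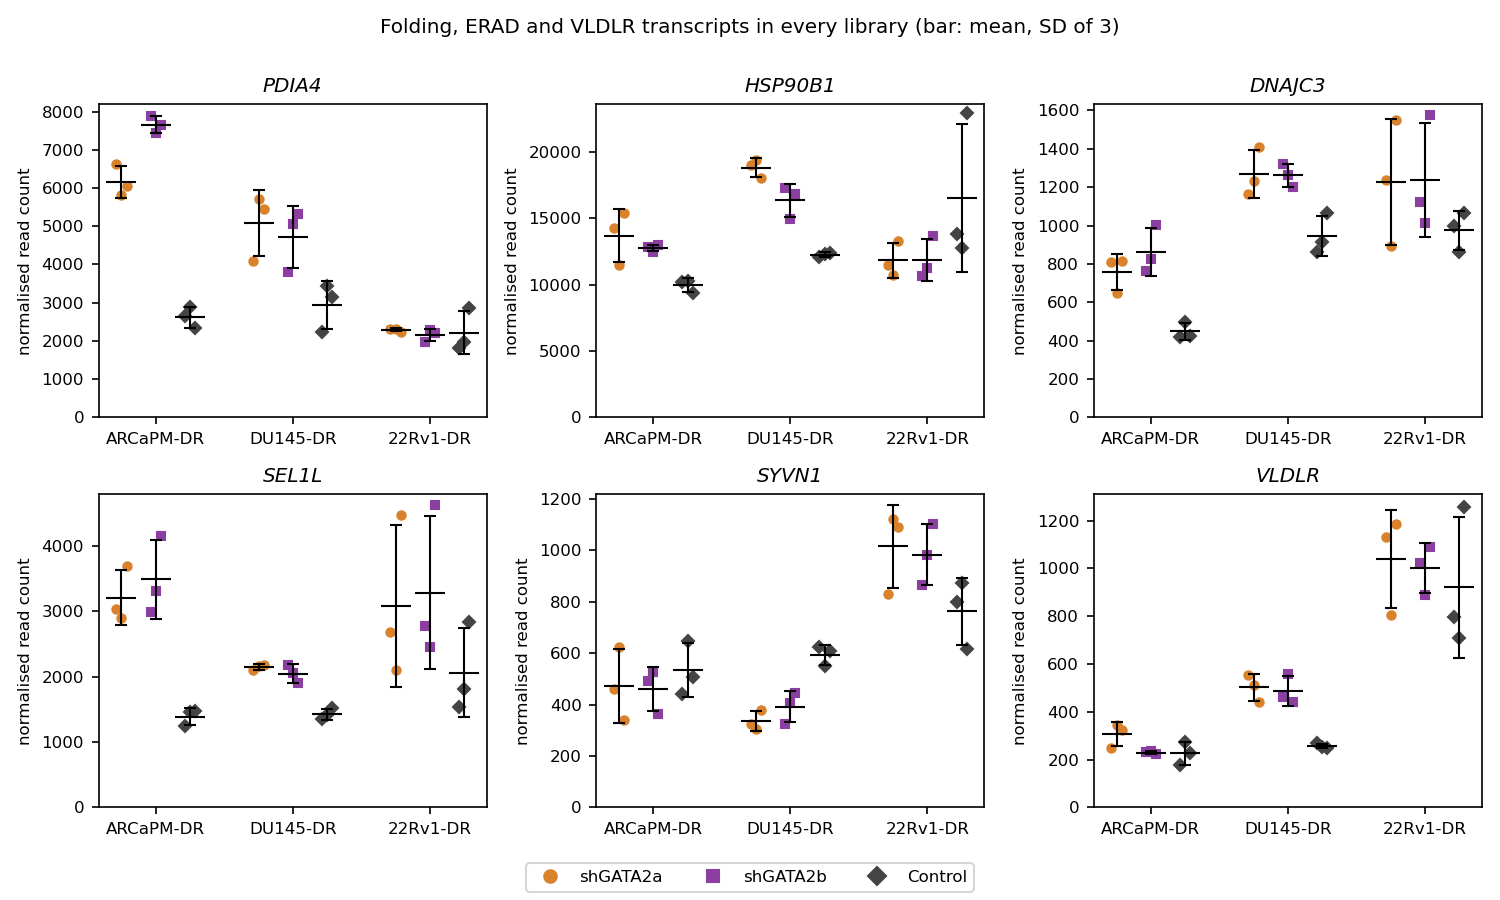
Normalised read counts (vertical axes, from 0) of PDIA4, HSP90B1, DNAJC3, SEL1L, SYVN1 and VLDLR in each of the 27 libraries, with shGATA2a and shGATA2b left of Control in each line and bars for mean and SD (n = 3). SEL1L in ARCaPM-DR sits at 2901 to 4158 in knockdown, above controls of 1240.1 to 1468, while SYVN1 in DU145-DR sits at 304 to 445, below controls of 549.7 to 624.

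Within ERAD, which moves misfolded proteins out of the ER for proteasomal breakdown, genes moved in opposite directions. SEL1L and SYVN1 (HRD1) encode the adaptor and the ubiquitin ligase of the same complex. SEL1L had 2901, 3173 and 4158 in ARCaPM-DR knockdown, against 1240.1, 1462 and 1468 in controls. It had 1897, 2136 and 2185 in DU145-DR knockdown, against 1348, 1419 and 1518 in controls. In 22Rv1-DR it had 2103, 2729 and 4627 in knockdown, against 1541, 1813 and 2833 in controls. The groups were separate in the first 2 lines and overlapped in 22Rv1-DR, where each number's hairpin libraries were above its own control. SEL1L rose by 1.26 ± 0.13 log2 (limma adjusted p = 0.00028) in ARCaPM-DR and by 0.55 ± 0.08 (adjusted p = 0.00099) in DU145-DR. In 22Rv1-DR the change was 0.61 ± 0.28, with an adjusted p of 0.50, and of 0.049 with the replicate block.

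SYVN1 had 304, 351 and 445 in DU145-DR knockdown, against 624, 549.7 and 609 in controls, with every knockdown library below every control. It fell by 0.72 on the log2 scale (SE 0.12, limma adjusted p = 0.0021). In 22Rv1-DR it had 831, 1035 and 1123 in knockdown, against 797, 871 and 618 in controls. The log2 difference there was 0.39 ± 0.16 (adjusted p = 0.46), and the ARCaPM-DR value was −0.20 ± 0.21 (adjusted p = 0.53). The effect differed between lines (F test, adjusted p = 0.016), being lower in DU145-DR than in 22Rv1-DR by 1.11 on the log2 scale (SE 0.25, adjusted p = 0.026). EDEM1, a mannosidase-like protein that marks glycoproteins for ERAD, also fell in DU145-DR, by 0.40 on the log2 scale (adjusted p = 0.010), with 1382 to 1546 in knockdown, against 1692 to 2169.6 in controls. HERPUD1, a ligase partner with ERSE-II in its promoter, rose there by 0.32 (adjusted p = 0.023), with separate groups, but was −0.26 (adjusted p = 0.235) in ARCaPM-DR and −0.42 (adjusted p = 0.58) in 22Rv1-DR. The HERPUD1 call was lost without DU145-DR Control 1 or 2 or shGATA2a 2 (adjusted p up to 0.13), and that of EDEM1 without Control 1 (0.077).

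Among the sensors and their factors, 1 rose and 1 fell in ARCaPM-DR. ATF6 had 1471, 1621 and 2010.0 in ARCaPM-DR knockdown, against 989, 1048 and 1085 in controls. The groups did not overlap and ATF6 rose by 0.70 ± 0.13 log2 (limma adjusted p = 0.0049). In DU145-DR it was 0.16 ± 0.09 (adjusted p = 0.25) and in 22Rv1-DR 0.38 ± 0.19 (adjusted p = 0.52), and a difference between lines did not pass for ATF6 (F test, adjusted p = 0.23) but did with the replicate block (adjusted p = 0.025). XBP1 had 594, 679 and 769 in ARCaPM-DR knockdown, against 839, 794 and 866 in controls. Its groups were separate and it fell by 0.30 on the log2 scale (SE 0.09, adjusted p = 0.049), a call that was lost in 11 of 20 alternatives, among them leaving out any ARCaPM-DR library other than shGATA2a 2 or 3 (adjusted p up to 0.16). With shGATA2b alone, 0 of the 4 sensor genes fell in ARCaPM-DR, so XBP1 did not. XBP1 was −0.13 (adjusted p = 0.48) in DU145-DR, with 590.2, 776 and 821 in knockdown against 739, 775 and 894 in controls. It was −0.24 (adjusted p = 0.69) in 22Rv1-DR, with 1586, 1823 and 2231 in knockdown against 1622, 1989 and 3446 in controls.

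In DU145-DR none of the 4 sensor genes passed with limma (0 higher and 1 lower at an unadjusted p under 0.05, where 16.5% and 15.6% of all tested genes were; 0 with edgeR and with DESeq2). EIF2AK3 was −0.22 there, with an adjusted p of 0.15, and of 0.045 with the replicate block. ERN1 was 0.36 (adjusted p = 0.21) in ARCaPM-DR and −0.29 (adjusted p = 0.26) in DU145-DR. In 22Rv1-DR it had 669, 784 and 1284 in knockdown, against 381, 522 and 893 in controls, a change of 0.64 ± 0.28 with an adjusted p of 0.48, and of 0.048 with the block.

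Of the 8 regulators of the integrated stress response, 2 rose, both in DU145-DR. DDIT3 encodes CHOP, a factor tied to stress-induced cell death. It had 194, 221 and 248 in DU145-DR knockdown, against 137, 170.4 and 137 in controls. It had 339.5, 537 and 651 in ARCaPM-DR knockdown, against 315, 594 and 782 in controls, and 3285, 3754 and 5076 in 22Rv1-DR knockdown, against 3198, 4074 and 4745 in controls. Groups were separate in DU145-DR only. The log2 changes were 0.56 ± 0.12 (limma adjusted p = 0.010) in DU145-DR, −0.01 ± 0.29 (adjusted p = 0.98) in ARCaPM-DR and 0.01 ± 0.19 (adjusted p = 0.99) in 22Rv1-DR, and a difference between lines did not pass (F test, adjusted p = 0.39). The DDIT3 call was lost without DU145-DR Control 1 (adjusted p = 0.061).

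ATF4, the central factor of this response, had 3883, 4303 and 4529.7 in DU145-DR knockdown, against 3431, 3456 and 3789 in controls, with no overlap. It had 4839, 6455 and 7355 in ARCaPM-DR knockdown, against 4225, 5327 and 5701 in controls, and 7580.1, 9227 and 10042 in 22Rv1-DR knockdown, against 7558, 10125 and 10749 in controls. It rose by 0.26 ± 0.08 log2 in DU145-DR (limma adjusted p = 0.037), and was 0.30 ± 0.15 (adjusted p = 0.20) in ARCaPM-DR and −0.05 ± 0.16 (adjusted p = 0.93) in 22Rv1-DR. The call was lost in 9 of 20 alternatives, among them leaving out DU145-DR Control 1 or 2, shGATA2a 1 or 2, or shGATA2b 3 (adjusted p up to 0.16).

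The other 6 regulators passed in no line. They are ATF3, DDIT4 (REDD1, an inhibitor of mTORC1), PPP1R15A (GADD34, which returns eIF2 to its active form), the pseudokinase gene TRIB3, the glutathione-degrading enzyme gene CHAC1, and CEBPB. In ARCaPM-DR none of the 8 passed with limma, with edgeR or with DESeq2, nor at an unadjusted p under 0.05 (0 in each direction, where 17% of all tested genes were higher and 16.3% lower), and the medians of the 8 were −0.02 there, 0.08 in DU145-DR and −0.12 in 22Rv1-DR. ATF3 was −0.54 ± 0.25 in ARCaPM-DR (adjusted p = 0.17). PPP1R15A was 0.23 ± 0.13 in DU145-DR, with an adjusted p of 0.22, and of 0.020 with the replicate block. In 22Rv1-DR the 8 changes ran only from −0.25 to 0.01.

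The regulators stood higher in the controls of 22Rv1-DR than in those of the other lines. All 8 were higher in 22Rv1-DR controls than in ARCaPM-DR controls, where 38.3% of 15295 genes were, and than in DU145-DR controls, where 36.7% were (limma, joint fit of 27 libraries). The median differences of the 8 were 2.50 and 2.37 log2. ARCaPM-DR and DU145-DR controls lay closer, with a median difference of 0.19 log2. Of the 8, 2 were higher in ARCaPM-DR than in DU145-DR controls and 0 lower, where 28.8% and 31.1% of all tested genes were. ATF3 had 6802, 11580.1 and 13691 in 22Rv1-DR controls, 333, 242 and 454 in ARCaPM-DR controls, and 325, 363 and 313 in DU145-DR controls. DDIT3 had 3198, 4074 and 4745 in 22Rv1-DR controls, 315, 594 and 782 in ARCaPM-DR controls, and 137, 170.4 and 137 in DU145-DR controls. The 22Rv1-DR libraries lay above all those of the other lines for both genes. The ATF3 difference was 4.95 ± 0.27 log2 from ARCaPM-DR (adjusted p = 2.0e-14) and 4.94 ± 0.27 from DU145-DR (adjusted p = 2.8e-14). For DDIT3 it was 2.91 ± 0.26 (adjusted p = 2.4e-10) and 4.74 ± 0.26 (adjusted p = 2.4e-14), and DDIT3 also differed between ARCaPM-DR and DU145-DR controls, by 1.83 ± 0.26 (adjusted p = 1.1e-06).

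ASNS, the asparagine synthetase gene and a classical ATF4 target, followed the order of DDIT3: it was 2.20 ± 0.17 log2 higher in 22Rv1-DR than in ARCaPM-DR controls, 3.74 ± 0.17 higher than in DU145-DR controls and 1.54 ± 0.17 higher in ARCaPM-DR than in DU145-DR controls (limma adjusted p = 2.8e-11, 1.4e-15 and 3.4e-08). The 7 ATF4 targets did not share it as a set. In 22Rv1-DR controls, 4 were higher and 1 lower than in ARCaPM-DR controls, where 38.3% and 31.9% of all tested genes were. Against DU145-DR controls, 3 were higher and 1 lower, where 36.7% and 33.7% of all were. PSPH was the lower gene, by 1.17 and 1.12 log2. The chaperones did not share the order of ASNS either. Of the 15, 6 were higher and 3 lower in 22Rv1-DR than in ARCaPM-DR controls, where 31.9% of all tested genes were lower. Against DU145-DR controls, 5 were higher and 5 lower in 22Rv1-DR controls, where 33.7% of all were lower, and 2 were higher and 8 lower in ARCaPM-DR controls, where 28.8% and 31.1% of all were. Among these, CRELD2 was 2.59 and 2.22 log2 higher in 22Rv1-DR controls than in ARCaPM-DR and DU145-DR controls, and PDIA6 was 0.81 and 1.39 log2 lower. Differences between lines cannot be told apart from any difference in culture or handling between them.

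**Figure D4:**
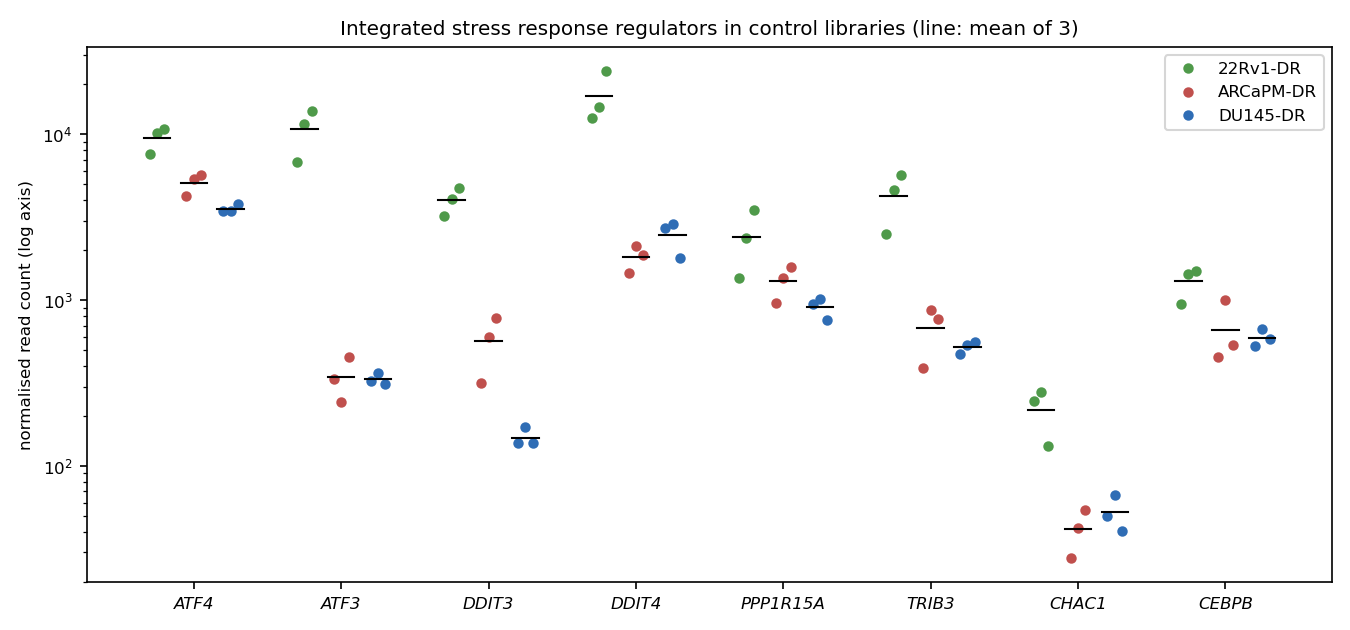
Normalised read counts (log axis) of the 8 integrated stress response regulators in the 3 control libraries of 22Rv1-DR, ARCaPM-DR and DU145-DR, with the mean as a line. ATF3 sits at 6802 to 13691 in 22Rv1-DR, and at 242 to 454 in ARCaPM-DR and 313 to 363 in DU145-DR.

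The amino acid genes included SLC7A5 and SLC3A2, the light and heavy chain of the LAT1 transporter of large neutral amino acids, PHGDH, PSAT1 and PSPH, which in that order make serine, and ASNS. SLC7A5 and SLC3A2 rose in ARCaPM-DR. SLC7A5 had 8881, 13372 and 6347 with shGATA2a and 19905, 23882 and 14608 with shGATA2b, against 6346, 8045 and 6630.2 in controls. SLC3A2 had 3197, 4111 and 3451 with shGATA2a and 5753, 7029 and 6488 with shGATA2b, against 2569, 2925 and 3171 in controls. All shGATA2b libraries were above all shGATA2a libraries for both genes, and shGATA2a overlapped the controls for SLC7A5. Taken over both hairpins, SLC7A5 rose by 0.92 ± 0.23 log2 (limma adjusted p = 0.021) and SLC3A2 by 0.73 ± 0.12 (adjusted p = 0.0027). The SLC7A5 call was lost without ARCaPM-DR Control 1 or 3 (adjusted p up to 0.097). With shGATA2a alone, 0 of the 7 ATF4 targets passed in ARCaPM-DR, so neither SLC7A5 nor SLC3A2 did. With shGATA2b alone, 3 of the 7 rose and 0 fell. Of all tested genes, 12.8% passed with shGATA2a and 14.5% with shGATA2b, in either direction.

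The hairpins were then set against each other. In ARCaPM-DR, shGATA2b exceeded shGATA2a by 0.84 ± 0.14 log2 for SLC3A2 (limma adjusted p = 0.024) and by 0.75 ± 0.14 for PSAT1 (adjusted p = 0.042), and 105 genes, or 0.803% of those tested, differed in either direction. For SLC7A5 the difference was 1.07 ± 0.26 (adjusted p = 0.11). PSAT1 had 3419, 3576 and 3994 with shGATA2b and 2041, 1900.1 and 2627 with shGATA2a, against 2249, 2056 and 2377 in controls, so that only shGATA2b stood apart. It was 0.72 ± 0.14 with shGATA2b (adjusted p = 0.0083) and −0.04 ± 0.14 with shGATA2a (adjusted p = 0.89), where 14.5% and 12.8% of all tested genes passed. GATA2 itself was −2.94 ± 0.25 with shGATA2b and −2.19 ± 0.25 with shGATA2a, a difference that did not pass (adjusted p = 0.26). Whether another target of a hairpin took part was not tested.

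**Figure D5:**
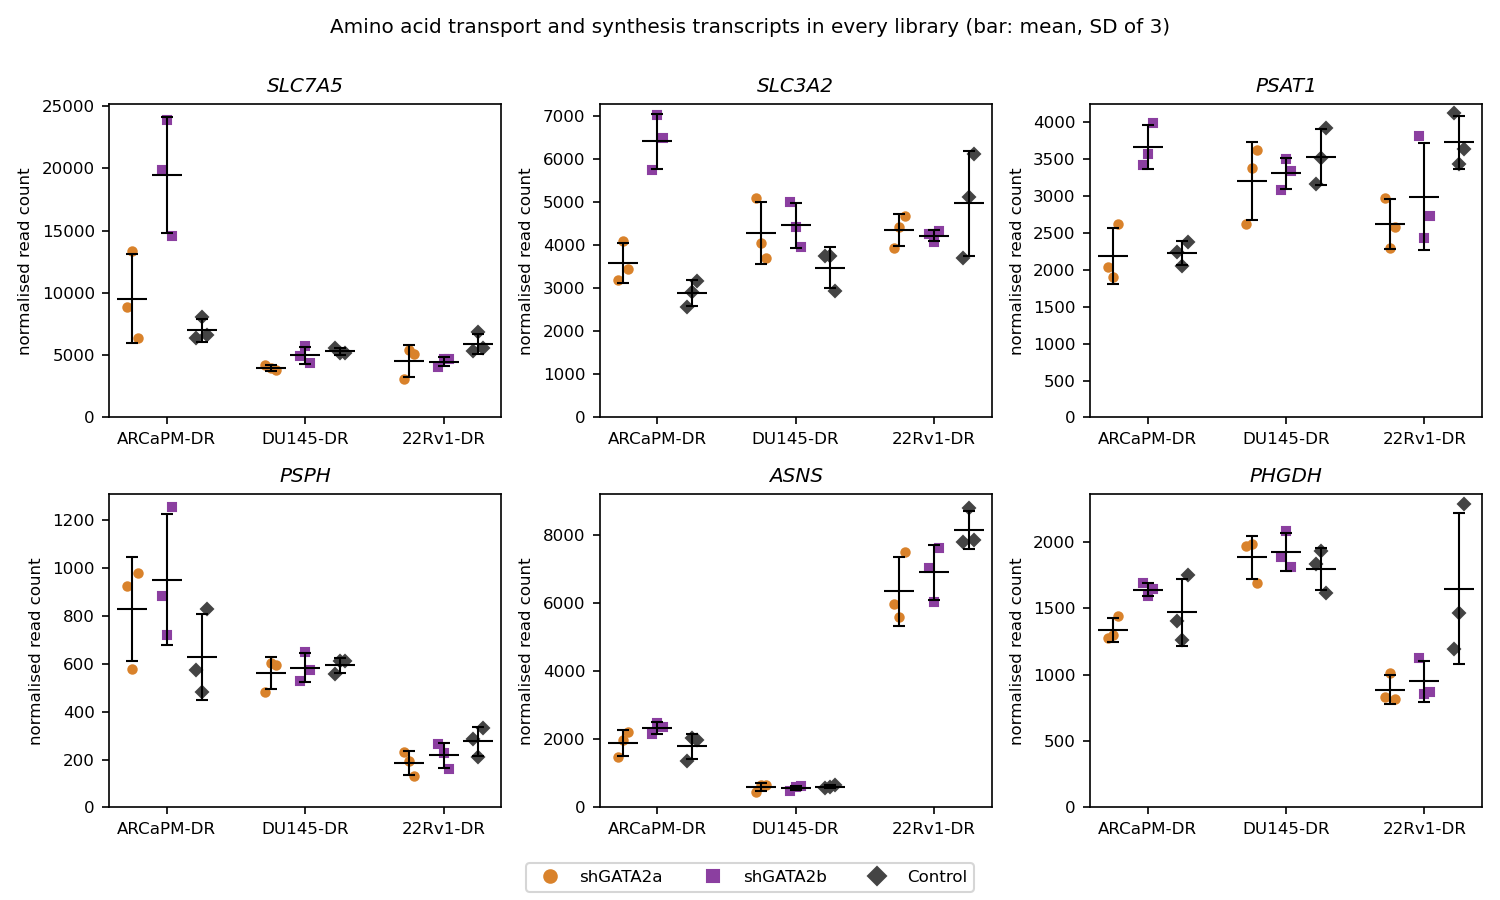
Normalised read counts (vertical axes, from 0) of SLC7A5, SLC3A2, PSAT1, PSPH, ASNS and PHGDH in each of the 27 libraries, with shGATA2a and shGATA2b left of Control in each line and bars for mean and SD (n = 3). PSAT1 in ARCaPM-DR sits at 3419 to 3994 with shGATA2b, and at 1900.1 to 2627 with shGATA2a and 2056 to 2377 in controls.

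Of the 7 genes, VLDLR included, 7 had log2 changes above 0 in ARCaPM-DR over both hairpins, with a median of 0.34. The hairpins had the same sign there for 5 of the 7. In DU145-DR 3 were above 0, with a median of −0.06, and in 22Rv1-DR 1 was, with a median of −0.40. None of the 7 passed in 22Rv1-DR with limma or edgeR, 2 were lower at an unadjusted p under 0.05, and PHGDH was called lower with DESeq2. PHGDH had 818, 861 and 1128 in 22Rv1-DR knockdown, against 1193, 1460.2 and 2284 in controls, without overlap, a change of −0.80 ± 0.20 (limma adjusted p = 0.21). It was 0.02 ± 0.12 in ARCaPM-DR (adjusted p = 0.91) and 0.09 ± 0.09 in DU145-DR (adjusted p = 0.54). PHGDH differed between lines (F test, adjusted p = 0.012). Without the third 22Rv1-DR control, the highest of that line, the 22Rv1-DR change was −0.53 and the F test had an adjusted p of 0.042. Set against 22Rv1-DR, the ARCaPM-DR effect was higher for SLC7A5 (1.32 ± 0.27 log2, adjusted p = 0.0061), SLC3A2 (0.92 ± 0.20, 0.0090), PHGDH (0.82 ± 0.21, 0.029) and PSAT1 (0.77 ± 0.20, 0.028). For SLC7A5 it was also higher than in DU145-DR, by 1.17 ± 0.27 (adjusted p = 0.0090).

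VLDLR, a lipoprotein receptor that ATF4 is known to induce, rose most of the 38 in DU145-DR. It had 441, 486 and 558 in knockdown, against 268, 254 and 249.97 in controls, so the groups were far apart, and the log2 change was 0.93 ± 0.11 (limma adjusted p = 0.00033). It was 0.24 ± 0.16 in ARCaPM-DR (adjusted p = 0.33) and 0.18 ± 0.20 in 22Rv1-DR (adjusted p = 0.74), and a difference between lines did not pass for VLDLR (F test, adjusted p = 0.073) but did with the replicate block (adjusted p = 0.0027). With the replicate block, SLC3A2 also passed in DU145-DR (0.33, adjusted p = 0.00036, against 0.080 without) and SLC7A5 was lower (−0.25, adjusted p = 0.0063, against 0.082 without).

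The test of the difference between lines, the question of whether knockdown acted alike in all 3, passed for 10 of the 38 genes, where 7% of 15295 genes did. They were 5 chaperones (HSP90B1, PDIA3, PDIA4, DNAJB11 and CRELD2), 1 ERAD gene (SYVN1) and 4 amino acid genes (PSAT1, PHGDH, SLC7A5 and SLC3A2), and 0 of the 12 sensors and stress response regulators (2 at an unadjusted p under 0.05, where 21.6% of all tested genes were; only limma was run for this test). With the replicate block, which also takes in ARCaPM-DR, where the numbers do not pair the samples by the rule used, 24 of the 38 passed, where 26.2% of all tested genes did. These were the same 10 and 14 others. The others were 5 chaperones (HSPA5, PDIA6, DNAJB9, DNAJC3 and HYOU1), 3 ERAD genes (SEL1L, HERPUD1 and EDEM1) and 3 ATF4 targets (ASNS, PSPH and VLDLR). With them were 2 sensors (ERN1 and ATF6) and 1 stress response regulator (ATF3). By pairs of lines, the ARCaPM-DR effect was above the 22Rv1-DR effect for 6 and below it for 0, where 2.19% and 1.2% of all tested genes were. The ARCaPM-DR effect was above the DU145-DR effect for 1 and below it for 1, where 3.71% and 3.41% were. The DU145-DR effect was above the 22Rv1-DR effect for 3 and below it for 1, where 0.621% and 0.464% were. PDIA3 was 0.80 ± 0.17 log2 higher in its effect in DU145-DR than in 22Rv1-DR (limma adjusted p = 0.016), and DNAJB11 was lower in ARCaPM-DR than in DU145-DR by 0.58 on the log2 scale (SE 0.17, adjusted p = 0.040). For CRELD2 no pair of lines passed (adjusted p of at least 0.062), and its F test was lost without any DU145-DR library other than shGATA2a 3, without 22Rv1-DR Control 3, shGATA2a 3, or shGATA2b 2 or 3, and without ARCaPM-DR Control 1 or 3, shGATA2a 1, or shGATA2b 1 or 2 (adjusted p up to 0.16). That of PSAT1 was lost without 22Rv1-DR Control 1, shGATA2a 2 or 3, or shGATA2b 2 or 3, without any ARCaPM-DR control, shGATA2a 1 or 3, or shGATA2b 3, and without DU145-DR Control 2 or shGATA2b 3 (adjusted p up to 0.11). That of DNAJB11 was lost without ARCaPM-DR Control 1, any DU145-DR control, shGATA2a 2 or shGATA2b 1 of DU145-DR (adjusted p up to 0.10), and that of SLC3A2 without ARCaPM-DR Control 1 (0.052).

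Control 3 of 22Rv1-DR stood above the other controls for HSP90B1, PDIA3, HYOU1, CANX and CRELD2 and below them for MANF. Its values were 22910.1, 5862, 9224, 26900.4 and 1906, against at most 13821, 3825, 4655, 14550.2 and 1027 in the other 22Rv1-DR controls. For MANF it had 284, against 848 and 889.8. Control 3 was also the highest 22Rv1-DR control for PHGDH and XBP1, among other genes. Without it the 22Rv1-DR log2 changes moved to −0.26 from −0.47 for PDIA3, to 0.17 from −0.19 for HYOU1, to 0.10 from −0.20 for CANX, to −0.36 from −0.70 for CRELD2 and to −0.36 from 0.17 for MANF. They moved to −0.53 from −0.80 for PHGDH and to 0.08 from −0.24 for XBP1. None of these passed with limma either way, but the F tests of MANF and ERN1 then passed (adjusted p = 0.0098 and 0.037).

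Of 127 other genes of the same pathways, 125 were tested in ARCaPM-DR, where 26 rose and 10 fell, and 125 in DU145-DR, where 25 rose and 10 fell. All 127 were tested in 22Rv1-DR, where 1 rose and 0 fell with limma (11 higher and 4 lower at an unadjusted p under 0.05, where 4.15% and 5.87% of all tested genes were). The shares of all genes with an adjusted p under 0.05 are those given above. Genes of ER translocation and ER-Golgi transport rose in 6 of 21 cases in DU145-DR, and rose in 4 and fell in 2 in ARCaPM-DR. Other ERAD genes rose in 4 of 24 and fell in 2 in DU145-DR, and rose in 5 of 23 and fell in 3 in ARCaPM-DR. Aminoacyl-tRNA synthetase genes, many of them ATF4 targets, listed with the tRNA export gene XPOT, rose in 3 of 13 and fell in 2 in DU145-DR, and rose in 5 and fell in 2 in ARCaPM-DR. Other stress response regulators rose in 2 of 15 and fell in 4 in DU145-DR, and rose in 3 of 16 and fell in 1 in ARCaPM-DR.

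CALU, a calcium-binding protein of the secretory pathway, was the gene of these lists that rose in all 3 lines. It averaged 9467 ± 1058 in ARCaPM-DR knockdown and 2473 ± 82.4 in controls, 5901 ± 161 in DU145-DR knockdown and 3019 ± 480.3 in controls, and 3512 ± 360.1 in 22Rv1-DR knockdown and 1859 ± 225 in controls (SD, n = 6 and 3). All knockdown libraries lay above all controls in each line. The log2 changes were 1.93 ± 0.11 (limma adjusted p = 2.0e-05), 0.98 ± 0.10 (0.00015) and 0.92 ± 0.14 (0.028), in that order. 1 of the 27 CALU values was not a whole number of reads. In 22Rv1-DR, on leaving out any 1 of the other 8 libraries than Control 3, at most 2 genes of the whole table passed.

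SLC7A11, the cystine transporter gene, rose by 1.79 ± 0.18 log2 in ARCaPM-DR (limma adjusted p = 0.00020) and by 0.94 ± 0.11 in DU145-DR (adjusted p = 0.00034), with 3 of its 27 values not whole. Among genes of these lists averaging at least 50, the next largest changes in ARCaPM-DR were those of FKBP14, an ER prolyl isomerase (1.74 ± 0.13, adjusted p = 5.4e-05), ERO1LB, an ER oxidase (1.25 ± 0.28, 0.014), and DERL1, a channel component of ERAD (1.20 ± 0.21, 0.0038), which rose, and UBE2J1, the ERAD ubiquitin-conjugating enzyme, which fell by 1.13 on the log2 scale (SE 0.12, adjusted p = 0.00035). In DU145-DR the glycine transporter gene SLC6A9 fell by 0.87 on the log2 scale (SE 0.17, adjusted p = 0.0052), UBXN6 by 0.77 (SE 0.18, 0.014) and the heme oxygenase gene HMOX1 by 0.67 (SE 0.16, 0.016), the last 2 with overlapping groups. The neutral amino acid transporter gene SLC1A4 rose there by 0.58 ± 0.13 (adjusted p = 0.011).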

How the data were processed

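The authors deposited 1 table of normalised read counts (signal) for 23228 genes in 27 libraries. Per the submitters' processing notes, TopHat2 2.0.9 and Cufflinks 1.3.0 were used with hg19 (GRCh37). How reads were counted, with which strand setting, and how libraries were scaled are steps not given in the sources used here. RNA was isolated with RNeasy Mini, per the labels' protocols. Each deposited library was a set of whole multiples of 1 step, so whole reads were recovered. Of 433407 values above 0, 99.954% came out whole to 0.005 reads, and 199 in 58 genes did not.

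limma 3.58.1 (R 4.3.3) was fitted to each line alone, on log2(value + 1) with its trend option. Genes entered with 10 or more normalised reads in 3 or more of the 9 libraries, which all 38 genes had in each line. Both hairpin groups were averaged and set against Control. Differences between lines, and between controls, came from a joint fit of 27 libraries over 15295 genes. As alternatives, edgeR 4.0.16 and DESeq2 1.42.0 on the recovered reads called 2482 and 3135 genes in ARCaPM-DR, 2360 and 2697 in DU145-DR, and 57 and 191 in 22Rv1-DR. The scripts were tested on simulated data. Precision is set by 3 libraries per group. No 2 replicates were the same library: chi-square per degree of freedom between them was 6.36 to 104 over 27 pairs.

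Replicates are numbered 1 to 3 in every group. Deviations from group means of same-numbered libraries correlated by at least 0.275 in DU145-DR and 0.211 in 22Rv1-DR, over 9 pairs each, so the numbers pair those samples. That rests on the correlations alone, as no label explains the numbers. The main fits left the number out, so the calls ignore this pairing, and results with it as a block are given apart. In ARCaPM-DR the lowest was 0.0559, so there the numbers do not pair by that rule, which rests on the lowest pair. The median of same-numbered pairs was nevertheless 0.583 in ARCaPM-DR, against 0.393 in DU145-DR and 0.409 in 22Rv1-DR. Between differently numbered libraries the medians were −0.258, −0.211 and −0.213 in the same order. Pairing in ARCaPM-DR is therefore left undecided.

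The 38 genes, the other lists and the tests were chosen with earlier results of these data known. Values in every library, or their lowest, median and highest, are given for genes called in a line with an absolute log2 change of at least 0.5 there, and for HSPA5, XBP1, ATF4 and DDIT3. PHGDH, PSAT1, ERN1 and the genes high in a control library were described after their values were seen. Of the other lists, up to 6 called genes per line with a mean of at least 50 and the largest change are named. Alternatives were another pseudocount (0.1), other filters, scalings and tools, the replicate block, and leaving out each library. Promoters are from RefSeq (GRCh38.p14), a later build than that of the table, and no coordinates were carried between builds. Reads of antisense partners cannot be told apart from those of their genes.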

Additional observations from a re-analysis of the deposited data

Results flagged for a closer look

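Knockdown effects that differed between the 3 lines by limma's F test over 27 libraries were those of PDIA4 (adjusted p = 0.00061), SLC7A5 (0.0042), HSP90B1 (0.0070), PDIA3 (0.0097), PHGDH (0.012), SLC3A2 (0.014), SYVN1 (0.016), DNAJB11 (0.031), PSAT1 (0.039) and CRELD2 (0.042). Of 114 groups of 6 knockdown libraries, 2 held a library far from the other 5, where chance alone marks about 1 group in 20. PDIA4 was low in 22Rv1-DR shGATA2b 1, at 1984 normalised reads, and ERN1 was high in ARCaPM-DR shGATA2a 2, at 270.7 normalised reads.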

How the results depend on the processing

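The 25 calls of the 38 genes kept their direction in all 500 repeats under alternatives and their side of the threshold in 430, and 9 calls kept it in each of their 20 alternatives: HSP90B1, PDIA4, SYVN1 and VLDLR in DU145-DR and PDIA4, DNAJC3, SEL1L, ATF6 and SLC3A2 in ARCaPM-DR. None of these alternatives took a hairpin alone, and with shGATA2a alone SLC3A2 did not pass in ARCaPM-DR. Leaving out each library gave 6 to 14 genes higher in DU145-DR (6 without Control 1, 9 without Control 2) and 1 to 3 lower, 5 to 10 higher (5 without Control 1) and 0 to 1 lower in ARCaPM-DR, 0 in each direction in 22Rv1-DR, and 6 to 11 differing between lines (6 without ARCaPM-DR Control 1). Over all genes, the leave-one-out counts were 857 to 2440 in DU145-DR, 0 to 37 in 22Rv1-DR and 1179 to 3545 in ARCaPM-DR.

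With the replicate number as a block, 4 genes were lower in DU145-DR and 3 higher in 22Rv1-DR, as given above. In ARCaPM-DR, where the pairing check did not pass and 7 of 9 libraries correlated best with their own number, 16 were higher and 3 lower (22.4% and 22.6% of all tested genes were), and 24 of the 38 differed between lines. The block gave 5184 genes in DU145-DR, 166 in 22Rv1-DR, 5885 in ARCaPM-DR and 4003 between lines. One fit of all 27 libraries, with a shared spread, gave 3 higher and 1 lower in DU145-DR, 2 lower in 22Rv1-DR (PDIA3 and PHGDH) and 0 lower in ARCaPM-DR, and 650 genes in DU145-DR and 224 in 22Rv1-DR over the table. No filter, quantile normalisation and no trend each gave 0 lower in ARCaPM-DR, and DESeq2 gave 1 lower in 22Rv1-DR. The 22Rv1-DR count over the table was 3 with no trend and 1 without the 58 genes. The cause was not tested. Other scalings moved the median of all genes by less than 0.1 log2 and flipped the direction of no called gene among the 38. Quantile normalisation gave 11 of the 38 higher in DU145-DR, against 14 in the main fit. The smallest library, ARCaPM-DR shGATA2a 3, held 3.44 M reads.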
